A study of Homo sapiens with 3 samples.

Results

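The 4 genes of the fibroblast growth factor (FGF) receptors, FGFR1, FGFR2, FGFR3 and FGFR4, and the gene of an FGF carrier protein, FGFBP1, were examined for binding of p63 and ZNF148. The 5 genes were fixed by name, and a peak was assigned to a gene when its summit lay within 100 kb of the gene's hg19 span. By this rule 21 of 21520 p63 peaks and 39 of 37883 ZNF148 peaks belonged to the genes. Binding had been mapped by ChIP-seq, in which an antibody recovers a protein with the DNA it sits on and the recovered fragments are sequenced. The cells were FaDu, an established line from a pharyngeal squamous cell carcinoma, untreated in all 3 samples. The samples were 1 ΔNp63α ChIP library, 1 ZNF148 ChIP library and 1 library of input DNA, and only the antibody libraries have a peak list used here. The DNA came, per the labels' protocol, from 3 separate ChIP assays, but each antibody has 1 list, so no value has a replicate error and no test between conditions is possible. ΔNp63α is a form of p63, the p53-related factor of basal squamous cells, and ZNF148 is a zinc finger factor of GC-rich DNA.

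FGF receptors are membrane tyrosine kinases. FGFs bind them together with heparan sulfate, the receptors pair, and the signal runs through the adaptor FRS2 to the RAS and MAP kinase pathway. In stratified epithelia the epithelial splice form of FGFR2 receives FGF7 and FGF10 from the stroma, FGFR3 is also made by keratinocytes, FGFR1 is typical of mesenchyme and FGFR4 of liver. FGFBP1 is a secreted protein that releases FGFs stored in the matrix. Fgfr2 and Fgfr3 have been described as p63 targets in skin, which is background and not a result of these data.

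With a limit of 2 kb, each gene had a peak of 1 of the proteins near its start, and none of the 5 had peaks of both. For p63 these genes were FGFR2 and FGFBP1, and for ZNF148 they were FGFR1, FGFR3 and FGFR4. The 3 ZNF148 peaks were small, with folds of 8.66, 9.38 and 9.38, and would all drop out at a fold of 10. The 2 kb limit was chosen after the positions had been seen. With a limit of 1 kb only FGFR3 and FGFR4 had a peak, both of ZNF148. With 5 kb FGFR3 had both proteins and the other 4 genes kept 1, and with 20 kb 3 genes had both. Gene spans were given to the nearest 1 kb, so each distance from a gene start carries an error of up to 0.5 kb, which is more than separates the FGFBP1 peak, at 1.6 kb, from the 2 kb limit. How many other genes show such a split was not analysed here. The split is thus a description and not a result about the 5 genes.

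The sequences before 4 of the gene starts are shown because these peaks lie at or near them. They are the 250 bases upstream of the start that lies farthest upstream in RefSeq, read in the direction of transcription. They belong to GRCh38.p14, at chr10:121598445-121598694 (minus strand) for FGFR2, chr4:1793043-1793292 (plus) for FGFR3, chr5:177086665-177086914 (plus) for FGFR4 and chr4:15938741-15938990 (minus) for FGFBP1. The peaks are in hg19, so these positions cannot be set against peak positions. By distance, the p63 summits near the starts of FGFR2 and FGFBP1 lay 1.2 and 1.6 kb inside the genes, not upstream. The sequences shown are therefore not taken as the bound DNA. Capitals mark GC boxes, the letters GGGNGGGG on either strand, with overlapping matches counted separately.
FGFR2: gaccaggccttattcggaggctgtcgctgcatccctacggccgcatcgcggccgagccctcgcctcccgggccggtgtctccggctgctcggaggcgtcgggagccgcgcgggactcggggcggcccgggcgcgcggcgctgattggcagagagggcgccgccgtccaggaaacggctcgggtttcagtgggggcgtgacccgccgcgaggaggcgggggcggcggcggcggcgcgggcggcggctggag
FGFR3: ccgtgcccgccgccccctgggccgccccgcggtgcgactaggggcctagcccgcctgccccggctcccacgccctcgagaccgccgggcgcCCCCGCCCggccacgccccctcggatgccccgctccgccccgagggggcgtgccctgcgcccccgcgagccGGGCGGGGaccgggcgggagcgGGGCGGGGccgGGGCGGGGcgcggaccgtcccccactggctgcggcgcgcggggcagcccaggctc
FGFR4: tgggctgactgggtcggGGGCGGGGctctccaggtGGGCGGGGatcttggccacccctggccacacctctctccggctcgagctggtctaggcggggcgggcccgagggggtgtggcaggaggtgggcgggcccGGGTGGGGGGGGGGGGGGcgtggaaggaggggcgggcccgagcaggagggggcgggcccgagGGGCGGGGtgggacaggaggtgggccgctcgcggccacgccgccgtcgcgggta
FGFBP1: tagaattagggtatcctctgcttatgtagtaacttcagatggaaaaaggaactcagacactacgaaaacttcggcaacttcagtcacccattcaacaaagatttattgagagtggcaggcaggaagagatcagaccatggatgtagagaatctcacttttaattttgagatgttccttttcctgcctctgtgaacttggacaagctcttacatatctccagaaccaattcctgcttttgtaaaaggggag

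The FGFR3 sequence held 4 GC boxes and 86.8% G or C, and the FGFR4 sequence held 11 matches, many of them overlapping in a run of G, and 79.6% G or C. The FGFR2 sequence had 78.4% G or C and no GC box. FGFBP1 stood apart with 40.8% G or C and no GC box. Over all 35116 sequences of this length in the table, 36.0% held a GC box and the median G or C content was 58.0%. The p53 family letters CATG, 6 bases of any kind and CATG on the same strand were in none of the 4 sequences and in 0.296% of all. At so low a share, their absence from 4 sequences is not a result about these genes. ZNF148 had a peak at the start of FGFR3 and FGFR4, while its nearest peaks to the starts of FGFR2 and FGFBP1 were 10.5 and 18.0 kb away. The sequence before FGFR1, the other gene with a ZNF148 peak near its start, is not shown here, so these sequences do not cover all such genes. A match of letters is a description and shows no binding, and a link between GC boxes and ZNF148 peaks was not tested.

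The size of a peak is given here by its fold enrichment, the authors' ratio of fragments at the summit to the local background. As MACS2 defines it, 1 is added to both numbers. The number of fragments behind a peak was recovered from the deposited fold and p together, as whole numbers for all 60 peaks of the 5 genes. The lowest background of any peak, which 30.9% of p63 and 43.1% of ZNF148 summits had, was 1.27 fragments per position for p63 and 0.386 for ZNF148, a ratio of 3.28. The p63 library thus had the higher background coverage. The median peak had 38 fragments for p63 and 14 for ZNF148. A ZNF148 fold therefore rests on fewer fragments than the same p63 fold, and folds of the 2 proteins are set side by side without a comparison. Intervals are 95% exact Poisson limits and cover counting error only.

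**Figure D1:**
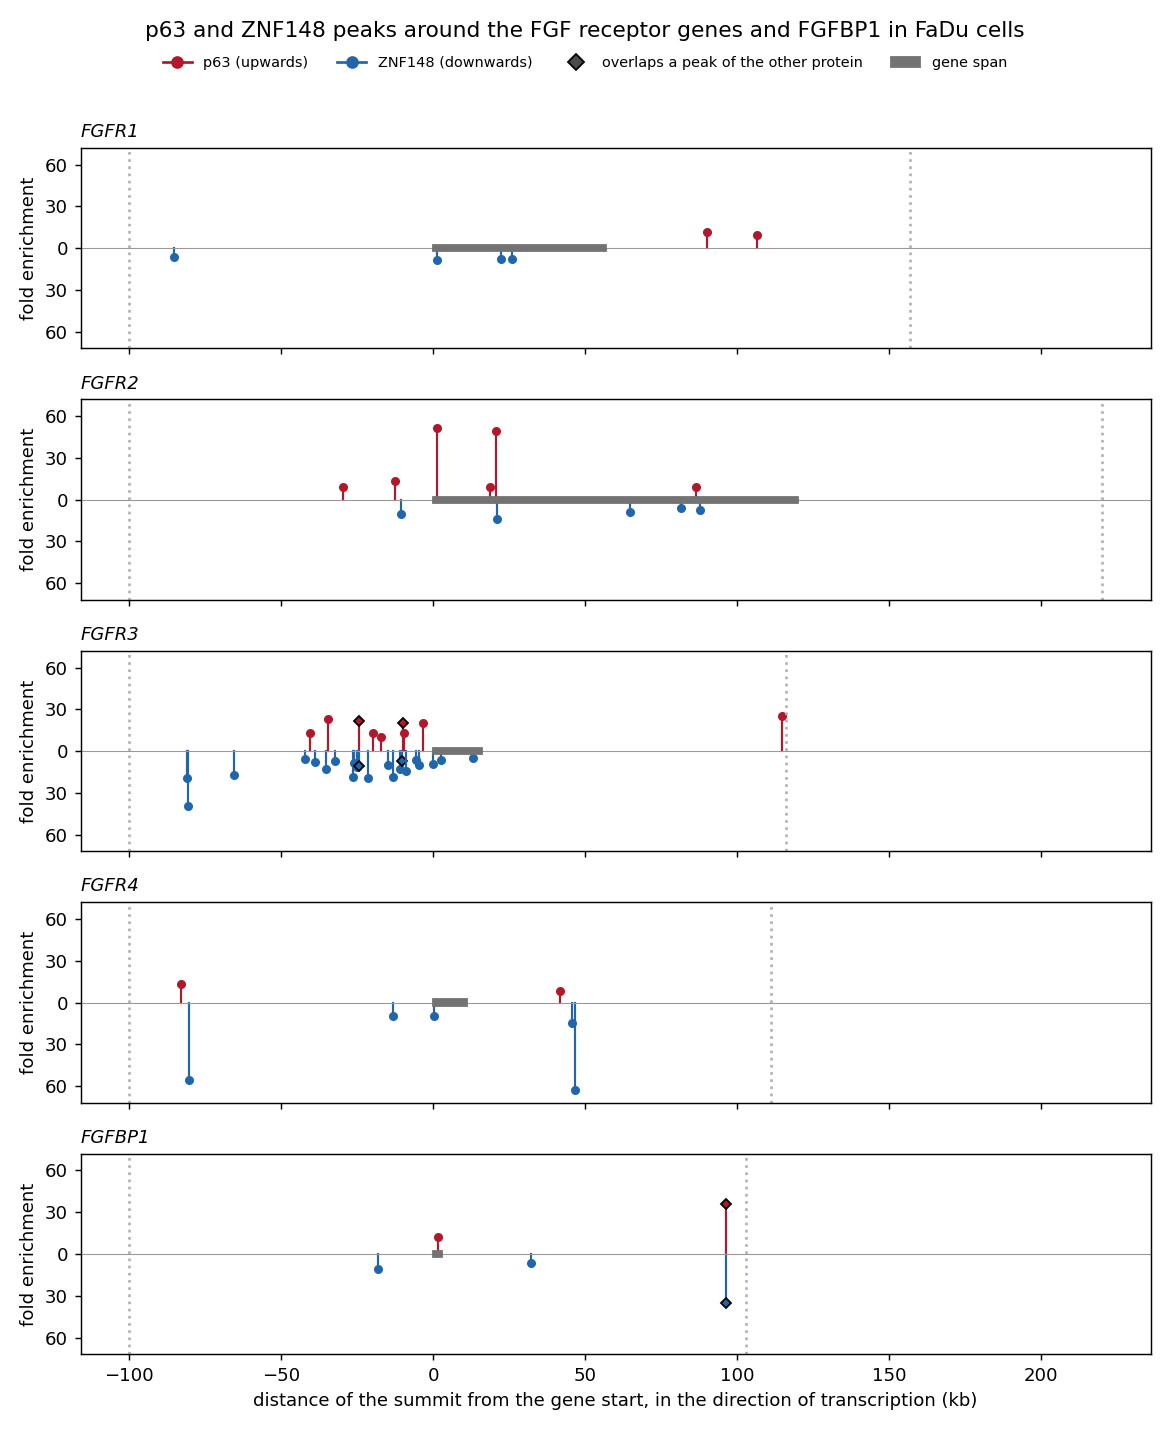
Peaks around the 5 genes, with the summit's distance from the gene start in kb on the horizontal axis and fold enrichment on the vertical axis, p63 upwards and ZNF148 downwards; dotted lines mark the 100 kb limits. FGFR2 carries the tallest p63 peaks (51.4 and 49.0), FGFR3 the most peaks, and FGFR1 peaks of low fold only (6.49 to 11.9).

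FGFR2 (chr10:123238000-123358000, minus strand) had the strongest p63 peaks of the 5 genes. The first lay 1.2 kb inside the gene from its start, at chr10:123356614-123356938, with a fold of 51.4 from 152 fragments (129 to 178). It ranked 808th of 21520 by q value, within the top 3.75%. The second lay 20.7 kb inside, at chr10:123337134-123337431, with a fold of 49.0 from 110 fragments (90.4 to 132.6), within the top 8.99%. No other p63 peak at the 5 genes was in the top 10% of the list.

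The other 4 p63 peaks at FGFR2 were weaker, with folds of 8.77 to 13.4. Of these, 2 were inside the gene, chr10:123339239-123339454 (fold 9.30) and chr10:123271603-123271819 (fold 8.77), 18.6 and 86.3 kb from the start. The other 2 were before it, by 12.6 and 29.6 kb. The nearer one, chr10:123370544-123370767, had 52 fragments but a fold of only 13.4, since its local background was 2.97 fragments against 1.27 at 12 of the 21 p63 peaks.

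ZNF148 had 5 peaks at FGFR2, 4 inside and 1 before the gene. The strongest, at chr10:123336841-123337123, had a fold of 13.7 from 18 fragments (10.7 to 28.4). It ended 10 bp short of the second p63 peak, with summits 291 bp apart, and so did not count as an overlap. The peak at the start was p63 alone: the nearest ZNF148 summit was 11.7 kb away, at chr10:123368295-123368587 (fold 10.1, 13 fragments). The remaining ZNF148 peaks, all inside the gene, had 7 to 12 fragments. They were chr10:123293291-123293490 (fold 8.66), chr10:123270094-123270247 (fold 7.56) and chr10:123276393-123276542 (fold 5.77). None of the 6 p63 peaks at FGFR2 overlapped a ZNF148 peak, beside 21.2% of the whole p63 list.

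FGFR3 (chr4:1795000-1811000, plus strand) had the most peaks of both proteins, 9 for p63 and 22 for ZNF148. That is 41.7 p63 and 101.9 ZNF148 peaks per Mb, beside 7.30 and 12.9 per Mb over chromosomes 1 to 22 and X. Of all adjoining 216 kb windows on those chromosomes, 0.631% held at least 9 p63 peaks and 0.909% at least 22 ZNF148 peaks. The medians were 1 and 2 peaks, and the lower quartile was 0 for both proteins. The windows ran from the first to the last peak of each chromosome. They were not matched to FGFR3 for gene density or base content.

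The peaks were gathered before the gene, on the side of its neighbour TACC3, a gene of the mitotic spindle. There lay 8 of the 9 p63 peaks, between 3.5 and 40.4 kb from the start, and 20 of the 22 ZNF148 peaks, up to 80.9 kb from it. No p63 summit was inside FGFR3. The 8 p63 peaks formed 1 stretch with gaps under 12.5 kb, chr4:1754541-1791648, which spanned 37.1 kb and also held 15 ZNF148 peaks. Stretches of 8 or more p63 peaks numbered 8 in the genome, of 575 stretches with at least 3. The ZNF148 peaks formed a stretch of 19, chr4:1752875-1808048, that reached into the gene. Of 2824 ZNF148 stretches with at least 3 peaks, 330 had 8 or more and 20 had 21 or more. The stretch of 19 is among the 330 but not the 20, and stretches of 19 or more were not counted.

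In the stretch of 8, p63 peaks were of middle strength, with folds of 10.2 to 23.3 and 22 to 80 fragments. The strongest by fold was chr4:1760140-1760406, 34.7 kb before the start, with 23.3 from 60 fragments (45.8 to 77.2). The most significant was chr4:1784776-1785068, 10.1 kb before it, with a fold of 20.4 from 80 fragments (63.4 to 99.6). Nearest to the start, at 3.5 kb, was chr4:1791389-1791648, with a fold of 20.3 from 45 fragments (32.8 to 60.2). Another 3 of the 8 shared a fold of 13.2 and 29 fragments. The remaining p63 peak of the FGFR3 window, chr4:1909663-1909961 (fold 25.2), lay 114.8 kb beyond the start on the other side, 1.2 kb inside the 100 kb limit. The peak just outside a limit was a p63 peak near FGFR4 with a fold of 15.1, 2.27 kb beyond it.

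ZNF148 folds before FGFR3 ran from 5.77 to 39.2, with a median of 11.2. The strongest pair of peaks was the farthest from the gene, chr4:1714274-1714596 (fold 39.2, 54 fragments) and chr4:1713901-1714176 (fold 19.5, 36 fragments), about 81 kb away. The next by q value was chr4:1773307-1773629, 21.5 kb before the start, with a fold of 19.5 from 26 fragments (17.0 to 38.1). At the start itself, chr4:1794900-1795103 had a fold of 9.38 from 12 fragments (6.2 to 21). The 2 ZNF148 peaks inside the gene, at chr4:1797409-1797602 and chr4:1807868-1808048, had folds of 6.49 and 5.05 from 8 and 6 fragments, and the latter was the weakest peak of the 5 genes.

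Of the 8 p63 peaks before FGFR3, 2 overlapped a ZNF148 peak, a share near the 21.2% of the whole p63 list. A ZNF148 summit lay within 1 kb of 4 of the 8, beside 26.4% of that list, and the distances ran from 74 bp to 2.27 kb. Neighbouring summits of the ZNF148 stretch were a median of 2.65 kb apart, so most positions within it are near one. In the first pair, chr4:1784776-1785068 for p63 (fold 20.4) and chr4:1784760-1784927 for ZNF148 (fold 7.37, 13 fragments), the overlap was 152 bp and the summits were 74 bp apart. In the second, chr4:1770333-1770602 for p63 (fold 21.6, 48 fragments) and chr4:1770512-1770809 for ZNF148 (fold 10.8, 14 fragments), it was 91 bp with summits 194 bp apart.

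**Figure D2:**
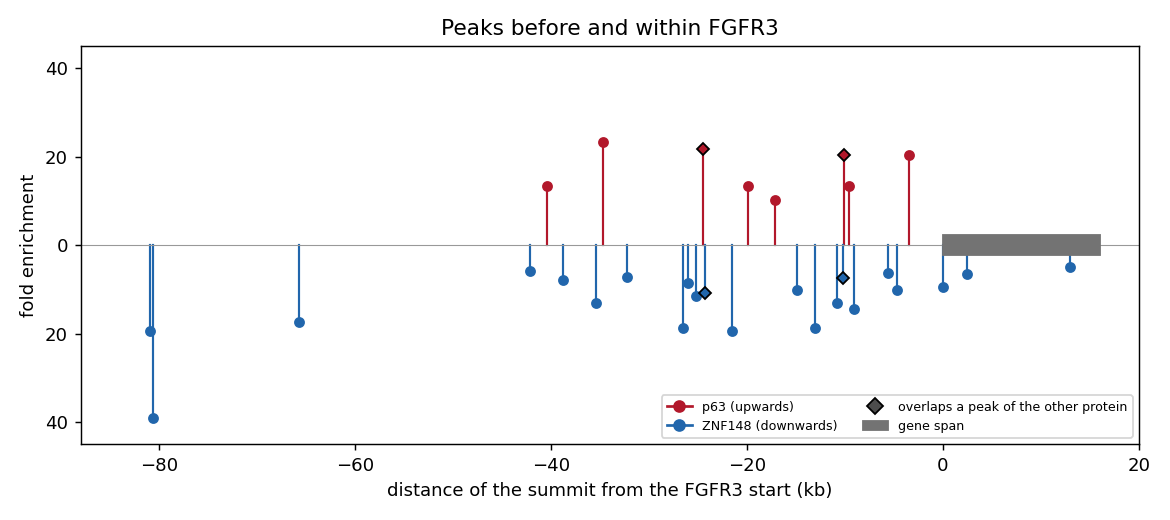
Peaks before and within FGFR3, drawn as distance of the summit from the gene start (kb) against fold enrichment, p63 upwards and ZNF148 downwards. The 8 p63 peaks stand among ZNF148 peaks, and 2 of them (diamonds) overlap one.

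FGFR1 (chr8:38269000-38326000, minus strand) had no strong peak of either protein. p63 had 2 peaks, both past the end of the gene, at chr8:38235638-38235865 (fold 11.9, 26 fragments) and chr8:38219302-38219472 (fold 9.71, 21 fragments). They were 90.2 and 106.6 kb from the start. ZNF148 had 4 peaks, 3 of them inside the gene. The one nearest the start, 1.3 kb into the gene at chr8:38324540-38324816, had a fold of 8.66 from 11 fragments (5.49 to 19.7). The others inside were chr8:38303561-38303735 and chr8:38299987-38300297, each with a fold of 7.94 from 10 fragments (4.80 to 18.4), and the fourth, 85.3 kb before the gene, had 6.49. The proteins were far apart here, with no summit of one within 64 kb of the other.

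FGFR4 (chr5:176514000-176525000, plus strand) had 1 ZNF148 peak and no p63 peak inside. The ZNF148 peak lay 0.4 kb from the start at chr5:176514250-176514490, with a fold of 9.38 from 12 fragments, the same values as the peak at the FGFR3 start. A further peak of that fold lay 13.1 kb before the gene, at chr5:176500742-176500972. p63 had 2 peaks in the window, chr5:176430859-176431083 (83.0 kb before the start, fold 13.4) and chr5:176555615-176555778 (41.7 kb after it, fold 8.40).

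The strongest ZNF148 peaks of the 5 genes were in the FGFR4 window but away from the gene. On the side of the neighbour NSD1, a histone methyltransferase gene, chr5:176560414-176561300 held 3 summits and reached a fold of 62.9 from 93 fragments (75.1 to 113.9), within the top 0.905% of the list. Close to it lay chr5:176559391-176559983 (fold 14.8, 20 fragments). On the other side of FGFR4, chr5:176433510-176433894 had a fold of 55.6 from 92 fragments (74.2 to 112.8). The 2 strongest were 46.6 and 80.3 kb from the FGFR4 start. Neither overlapped a p63 peak, and p63 summits were 4.9 and 2.8 kb away.

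FGFBP1 (chr4:15937000-15940000, minus strand) had a p63 peak inside its 3 kb span and no ZNF148 peak there. The p63 peak, 1.6 kb from the start at chr4:15938250-15938469, had a fold of 11.9 from 26 fragments (17.0 to 38.1), below the p63 list's median fold of 13.2. The nearest ZNF148 peak, chr4:15957902-15958132, was 18.0 kb before the gene (fold 10.8, 14 fragments). A weaker one, chr4:15907603-15907752 (fold 6.49, 8 fragments), lay beyond the end of the gene.

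The closest coincidence of the proteins at any of the 5 genes was also in the FGFBP1 window, 96.4 kb from the start on the side of CD38. The p63 peak chr4:15843469-15843765 had a fold of 35.8 from 80 fragments (63.4 to 99.6), and the ZNF148 peak chr4:15843412-15843842 a fold of 35.4 from 48 fragments (35.4 to 63.6). The p63 peak lay wholly within the ZNF148 peak, and the summits were 23 bp apart. The pair stood 6.63 kb inside the 100 kb limit by its p63 summit, and with a limit of 50 kb it would not be assigned to FGFBP1.

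**Figure D3:**
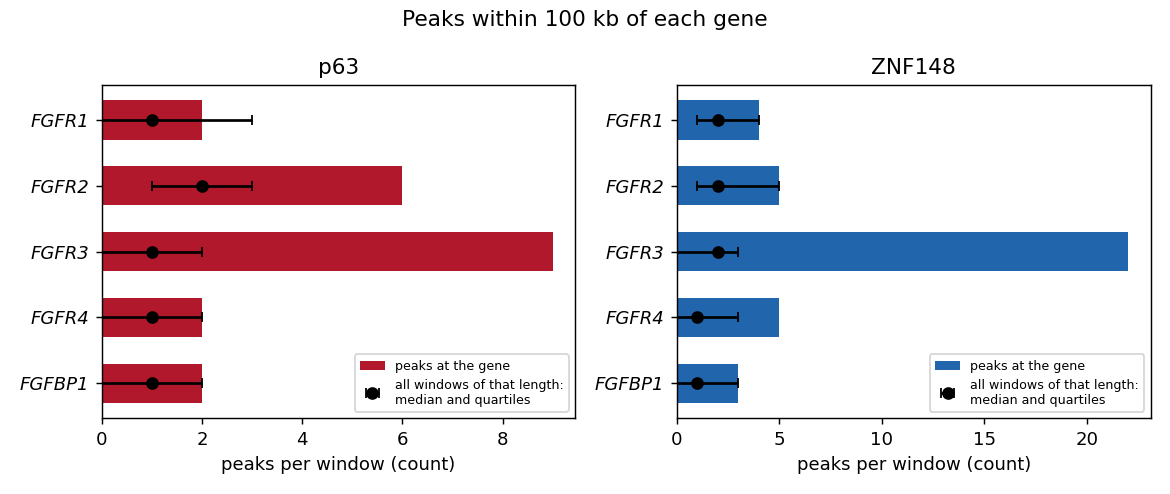
Number of peaks within 100 kb of each gene (bars) beside the median and quartiles of all adjoining windows of the same length (black points and lines), p63 left and ZNF148 right. The bars of FGFR3 (9 and 22), the p63 bar of FGFR2 (6) and the ZNF148 bar of FGFR4 (5) reach beyond the quartiles.

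Across the 5 genes, the overlaps comprised 3 of 21 p63 peaks, or 14.3% (95% Wilson limits 4.98 and 34.6%), beside 21.2% of all p63 peaks. In the other direction it was 3 of 39 ZNF148 peaks, or 7.69% (2.65 to 20.3%), beside 12.1% of that list. Both intervals hold the share of the whole list, but they treat the peaks as independent. The FGFR3 window alone held 9 of the p63 and 22 of the ZNF148 peaks, and both directions count the same 3 pairs. The intervals are thus no test of a difference from the list. Summits within 25 bp were found in 1 of 21, beside 13.5% of the p63 list, and a ZNF148 summit within 1 kb in 6 of 21, beside 26.4%. FGFR3 supplied 2 of the 3 overlaps, and without it 1 of 12 p63 peaks overlapped.

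The median folds at the 5 genes lay near those of the whole lists. The median p63 fold was 13.2 (quartiles 10.2 and 21.6), beside 13.2 (8.40 and 24.5) for all p63 peaks, and 16 of 21 had a fold of at least 10, beside 65.1% of the list. For ZNF148 the median was 10.1 (7.75 and 14.6), beside 9.83 (7.21 and 16.6), and 20 of 39 reached 10, beside 49.6%.

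None of the 15 peaks inside a gene, 5 of p63 and 10 of ZNF148, overlapped a peak of the other protein. With list shares of 21.2% and 12.1%, few or no overlaps among so few peaks are not a result about them. Of the 10 ZNF148 peaks inside, 9 had a fold below the list's median, and they rested on 6 to 18 fragments. The 25 ZNF148 peaks before the genes, 20 of them at FGFR3, had 7 to 92, and the 4 beyond the genes had 8 to 93. The medians were 10.5 inside, 14 before and 34 beyond, against 14 for the whole ZNF148 list. The 4 beyond were 2 each in the FGFR4 and FGFBP1 windows, so these medians compare few loci. A difference by place was not tested. For p63 the 5 inside ranged from 19 to 152 fragments, with the 2 strong peaks of FGFR2 at the top and 3 peaks below the list's median fold.

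**Figure D4:**
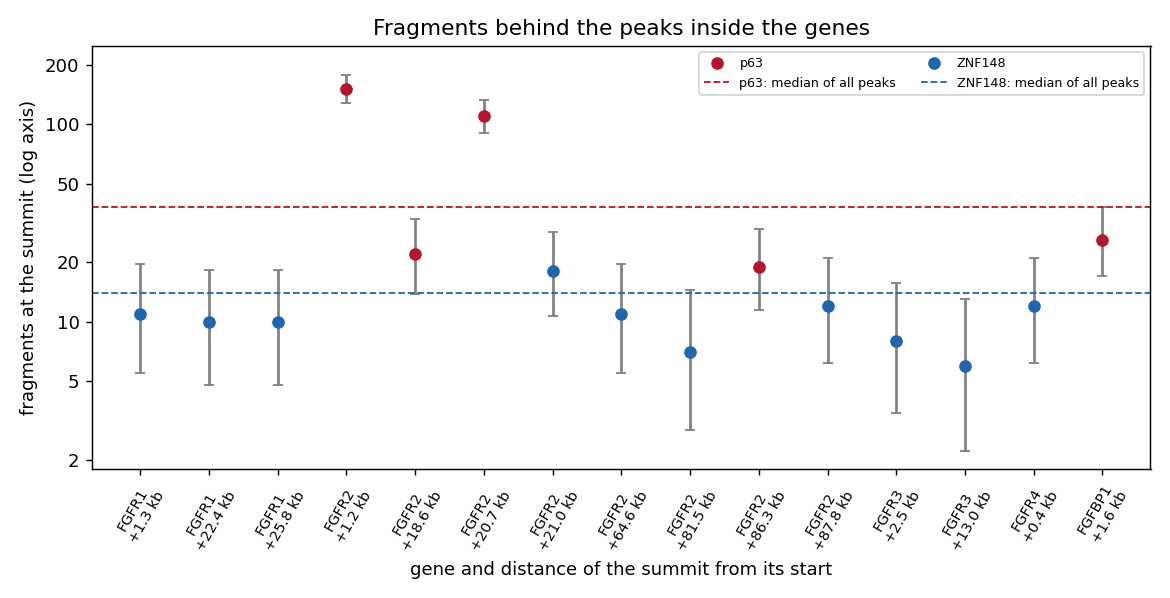
Fragments at the summit (log axis) of the 15 peaks inside the genes, ordered by gene and distance from the start, with 95% exact Poisson limits; dashed lines give the medians of all peaks, 38 for p63 and 14 for ZNF148. The 2 strong p63 peaks of FGFR2 lie above the p63 median and the ZNF148 peaks lie near or below theirs.

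By number of peaks, the p63 order was FGFR3 with 9, FGFR2 with 6 and the other 3 genes with 2 each. For ZNF148 it was FGFR3 with 22, FGFR2 and FGFR4 with 5, FGFR1 with 4 and FGFBP1 with 3. Among windows of equal length, 9.38% held at least the 6 p63 peaks of FGFR2, and 37.6 to 46.9% at least the 2 of FGFR1, FGFR4 and FGFBP1. For ZNF148 outside FGFR3 the shares were 17.0 to 32.0%. These windows, too, were not matched for gene density or base content. FGFR2 had more p63 than ZNF148 peaks, a ratio of ZNF148 to p63 of 0.833, beside 1.5 to 2.5 at the other 4 genes and 1.76 for the whole lists. With the ZNF148 list shortened to the length of the p63 list, FGFR1 also had more p63 peaks, 2 against 0.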

How the data were processed

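Per the labels, ChIP-seq was done in untreated FaDu cells with 1 library per antibody and 1 input library. The build hg19 and, as tools, MACS2 2.2.6, Bowtie2 2.3.4.3, MultiQC 1.12, FastQC 0.11.9 and SAMtools 1.7 are listed in the submitters' processing notes, without role or settings. For the control library and read filters, nothing is given in the sources used here. The deposited fold enrichment (a ratio) and the deposited −log10 p and −log10 q of each summit were used as the authors gave them, in narrowPeak column order.

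Peaks on chromosomes 1 to 22 and X were kept, and rows with equal start and end were merged, keeping the summit of highest q rank, which turned 43 ZNF148 rows at the genes into 39 peaks. Proteins overlapped from 1 bp. Fragments at a summit were taken as the whole number for which MACS2's ratio (pseudocount 1) and Poisson tail give the deposited fold and −log10 p. A whole number met the p within 0.0002 in 99.98% of p63 and 99.9% of ZNF148 rows. A second whole number also met it in 7 ZNF148 rows, none at these genes. Functions were tested on simulated peaks.

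Positions are 1-based. No hg19 sequence or annotation was used, so exons, motifs in peaks and the planned list of FGF pathway genes were not analysed here. Neighbouring genes come from RefSeq gene order (GRCh38.p14), and promoters of 4 genes from RefSeq. The strand of FGFR1 is textbook knowledge. Named were all peaks inside genes, all overlapping pairs and the 3 most significant peaks per window and list. Members and lists were chosen with earlier results of these data known. Python 3.11.15, numpy 2.4.6, pandas 2.3.3, scipy 1.17.1 and matplotlib 3.10.9 were used.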

Additional observations from a re-analysis of the deposited data

How the results depend on the processing

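Of 84 recomputed values, 67 stayed within 1.5 times the reported count or within the interval of the reported share or median, and 17 moved. Some of the 67 could not move. The p63 counts were fixed when the ZNF148 list was shortened and, with 1 summit per p63 peak, when every summit was counted. They were also fixed at a −log10 q limit of 5, since the lowest p63 value at the genes was 13.8. The interval of the shared p63 percentage, 4.98 to 34.6%, was wide. The 67 are therefore no measure of stability. With a 50 kb flank p63 had 1 peak each at FGFR4 and FGFBP1, and with 200 kb 6 at FGFR4. Counting every summit gave 8 ZNF148 peaks at FGFR4. Requiring a fold of 10 left p63 with 1 peak at FGFR1, 3 at FGFR2 and 1 at FGFR4, and ZNF148 with 0 at FGFR1, 2 at FGFR2, 13 at FGFR3 and 3 at FGFR4. With as many ZNF148 as p63 peaks, ZNF148 had 0 at FGFR1, 2 at FGFR2 and 14 at FGFR3. The ZNF148 peak near the FGFR1 start was therefore absent under both settings, and the fold limit also removed those at the FGFR3 and FGFR4 starts. Defining sharing by summits within 25 bp gave 1 shared p63 peak (4.76%). Leaving out FGFR3, an alternative chosen after seeing the data, also gave 1. Without replicate libraries, precision is limited to the fragments behind each peak, and ZNF148 peaks at the gene starts rest on 11 or 12.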
